A study of Homo sapiens with 6 samples.

Results

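The stretch described here is a part of the long arm of human chromosome 8 that starts at 95000000 (hg19) and spans 31 Mb. Its members are all deposited broad peaks whose midpoint falls inside it, 17698 peaks of 1390121 in the 4 lists of the series. YAP replicate 1 contributed 4954 of them, YAP replicate 2 contributed 4683, TAZ replicate 1 contributed 4160 and TAZ replicate 2 contributed 3901. The stretch was chosen by the density of peaks in these same lists, so the number, width and covered share of the peaks inside it are given as descriptions without a test. They are set beside the neighbouring stretch of the same arm between 47000000 and 95000000, a span of 48 Mb called the comparison stretch, which held 24451 peaks.

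The lists come from chromatin immunoprecipitation followed by sequencing in H1299, a long-established cell line from a human lung carcinoma. The YAP group has 2 libraries made with an antibody against YAP, the TAZ group 2 libraries made with an antibody against TAZ, and the 2 input libraries without antibody came in only as the control of the peak calling. All 6 samples came from cells starved of serum for 18 hours before nuclei were sonicated, and the labels name no other treatment or genetic change. Nothing in the labels says that replicates came from separate cultures, so any spread is that between libraries and may be technical. The peak names inside all 4 lists name 1 common input, while the lists' own names give an input for each replicate number, and it is unsettled which was used. The lists may agree in part through shared input reads, which was not tested. Depth is unknown, since the lists give no totals of reads, and a deeper library gives a longer list.

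YAP and TAZ are paralogous transcriptional coactivators at the end of the Hippo pathway. Both lack a DNA-binding domain and reach chromatin mainly through TEAD factors, often at enhancers far from the genes they act on. This part of the long arm is known to carry STK3, which encodes the core Hippo kinase MST2, and CCN3, a matricellular relative of the YAP and TAZ targets CCN1 and CCN2. It also carries GRHL2, an epithelial transcription factor, TRPS1, a GATA-type repressor, RAD21, a cohesin subunit, and EXT1, a heparan sulfate polymerase. All 34 genes of a list drawn up for this stretch were found on chromosome 8 in the RefSeq table, but that table follows GRCh38.p14. Since the peaks are in hg19, no peak was assigned to a gene, and the results below are by position.

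Peaks of both antibodies filled the stretch unevenly, in 2 crowded flanks around a sparse middle. Windows of 1 Mb held between 100 and 215 peaks in YAP replicate 1 and between 82 and 224 in YAP replicate 2. They held between 64 and 210 in TAZ replicate 1 and between 56 and 203 in TAZ replicate 2. The fullest window ran from 101000001 to 102000000 and held 215 and 224 peaks with YAP and 210 and 203 with TAZ. Next came the window starting at 103 Mb, which held 215 and 200 peaks with YAP and 201 and 203 with TAZ, then the last window of the interval, the one before it and its first. The emptiest window ran from 114000001 to 115000000 and held 100 and 82 peaks with YAP and 64 and 56 with TAZ. It was followed by the windows starting at 111, 116, 112 and 113 Mb. Every one of the 5 fullest windows held more peaks in each library than any of the 5 emptiest. That was nearly fixed by the choice, since these windows were picked by their mean over the same 4 libraries. Over all windows the 4 libraries gave nearly the same order. Spearman's rho of peak number across the 31 windows was between 0.945 and 0.985 in the 6 pairs of libraries. The windows lie side by side on 1 chromosome and the lists may share an input, so this is a description.

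**Figure D1:**
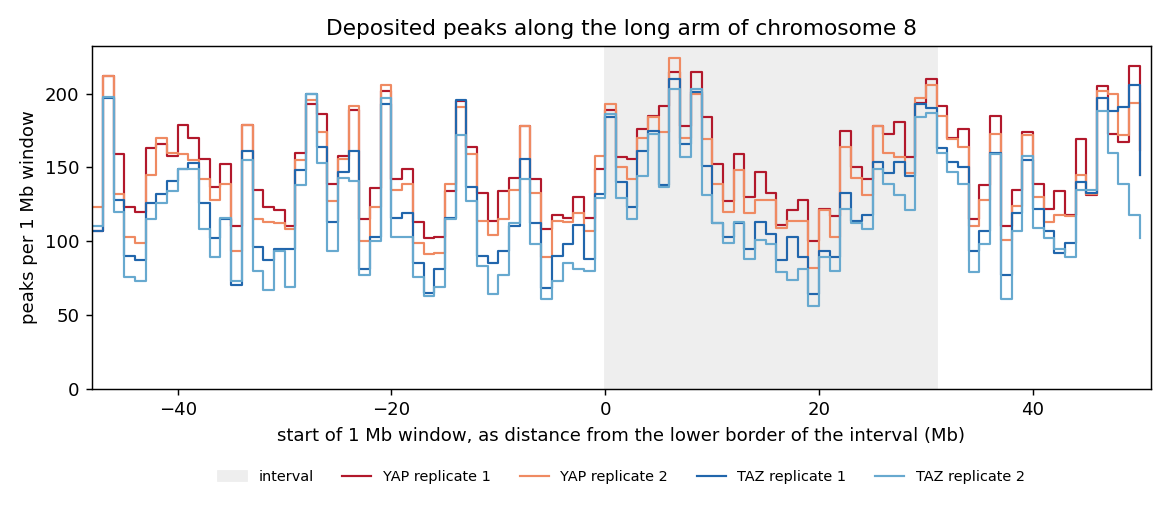
Deposited peaks per 1 Mb window along the long arm, with distance from the lower border of the interval in Mb on the x axis and the number of peaks on the y axis, as 1 line per library. The shaded interval starts and ends with crowded windows (189 and 210 peaks in YAP replicate 1) and is sparse in its middle (100 peaks in its emptiest window), while similar crests and troughs stand to its left.

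After the windows had been seen, the interval was divided into a lower flank of 10 Mb, a middle of 15 Mb that ends at 120 Mb and an upper flank of 6 Mb. The lower flank held 184.7 and 177.6 peaks per Mb with YAP and 164.9 and 157.8 with TAZ. The middle held 134.3 and 124.2 with YAP and 102 and 94.1 with TAZ. The upper flank held 182.2 and 174 with YAP and 163.5 and 151.8 with TAZ. Each library had more peaks per Mb in both flanks than in the middle. The lower flank was 1.52 ± 0.145 times as dense as the middle, and the upper flank 1.49 ± 0.134 times (SD over 4 libraries).

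Covered bases separated the flanks from the middle more sharply than peak number. In the lower flank 25.2% and 22.6% of the bases lay under a YAP peak and 19.5% and 19.4% under a TAZ peak. In the middle the shares were 10.4% and 8.84% with YAP and 6.80% and 6.14% with TAZ. In the upper flank they were 23.03% and 20.6% with YAP and 18.3% and 17.3% with TAZ. The covered share of the lower flank was thus 2.75 ± 0.335 times that of the middle and the share of the upper flank 2.51 ± 0.289 times (SD over 4 libraries), a larger contrast than that of peak number. Single windows reached 37.2% and 34.3% with YAP and 30.4% and 30.7% with TAZ between 95000001 and 96000000. The least covered window, from 114000001 to 115000000, had 6.01% and 4.42% with YAP and 3.17% and 3.04% with TAZ. The flanks were not filled evenly either. In the lower flank the window starting at 97 Mb had a mean of 12.2% with YAP and 9.30% with TAZ. The most covered window of the middle, starting at 117 Mb, had 13.4% with YAP and 9.34% with TAZ, so a window of the flank was less covered than a window of the middle.

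**Figure D2:**
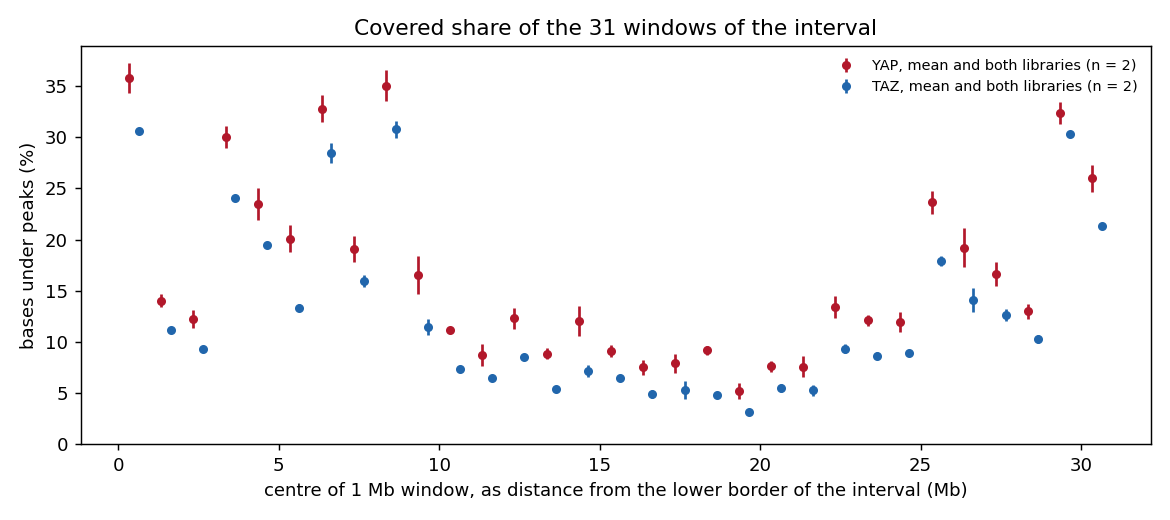
Covered share of each of the 31 windows, with the window's centre as distance from the lower border in Mb on the x axis and the percentage of bases under peaks on the y axis. Points are the means of the 2 YAP or 2 TAZ libraries and bars reach both libraries; the flanks hold windows above 30% with both antibodies, and no window of the middle reaches 15%.

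Peak width followed the same layout. The median width in the lower flank was 803 and 724.5 bp with YAP and 710 and 773 bp with TAZ. In the middle it was 438 and 412 bp with YAP and 399.5 and 388.5 bp with TAZ. Peaks of the lower flank were thus the wider ones in every library. Peaks of 2 kb or more made up 19.98% and 17.5% of the YAP peaks and 15.8% and 17.3% of the TAZ peaks in the lower flank. In the middle they made up 5.71% and 4.62% with YAP and 3.46% and 3.12% with TAZ. Wide peaks carried much of the covered sequence in the flanks: in the lower flank they held 55.9% and 51.8% of the bases under YAP peaks and 47.2% and 50.02% of those under TAZ peaks. Over the whole interval wide peaks numbered 686 and 555 with YAP and 462 and 453 with TAZ, or 13.8% and 11.9% of the YAP peaks and 11.1% and 11.6% of the TAZ peaks. The share in the whole lists was 17.1% and 16.4% with YAP and 15.5% and 17.7% with TAZ. Wide peaks were thus a smaller part of this stretch than of the genome in every library. The same held for the comparison stretch, at 13.4% and 11.7% with YAP and 9.76% and 10.5% with TAZ.

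The widest peaks of all 4 libraries lay at a single place. YAP replicate 1 had a peak of 32443 bp, which ran from 98740932 to 98773374 at a fold of 3.80. YAP replicate 2 had a peak of 34346 bp from 98739021 to 98773366, with a fold of 3.26. TAZ replicate 1 had a peak of 32296 bp from 98741022 to 98773317, with a fold of 3.58, and TAZ replicate 2 a peak of 25599 bp from 98742989 to 98768587, with a fold of 3.48. The fold is the enrichment over input that the authors' lists give for each peak. In the first 3 libraries these peaks had nearly the same upper end, and none of these peaks was strong by rank. In TAZ replicate 2 the same sequence was broken into 3 peaks, which together covered 90.3% of the YAP replicate 1 peak.

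Peaks of 10 kb or more were few and lay at 17 places, none of them in the middle. There were 12 in each YAP library, 4 in TAZ replicate 1 and 8 in TAZ replicate 2. At 2 places all 4 libraries had such a peak, at 5 places 3 libraries did, at 3 places 2 did and at 7 places 1 did. The second place with all 4 ran from 124427770 to 124448491, where the widest peak was 12426 and 17971 bp with YAP and 15717 and 11701 bp with TAZ. Places with such a peak in fewer libraries were still covered in the others, as shorter peaks. The lowest covered share of a place in any library was 42.3%, and the median over places and libraries was 87.2%. In the whole lists, peaks of this width were 0.877% and 0.766% with YAP and 0.615% and 0.982% with TAZ. They were a smaller share of the interval's peaks in every library. The comparison stretch, which is longer, held 22 and 18 with YAP and 12 and 11 with TAZ, also a smaller share than in the whole lists.

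Against the comparison stretch, the interval as a whole differed by little. It held 159.8 and 151.1 peaks per Mb with YAP and 134.2 and 125.8 with TAZ, while the comparison stretch held 144.6 and 136.2 with YAP and 119.1 and 109.5 with TAZ. The ratio was 1.11 in each YAP library, 1.13 in TAZ replicate 1 and 1.15 in TAZ replicate 2, so the small excess had the same direction in each. The windows of the 2 stretches overlapped almost throughout. In YAP replicate 1 the middle window of the interval by peak number held 157 peaks and that of the comparison stretch 140.5, with ranges of 100 to 215 and 102 to 212. Of the 31 windows, 22 and 20 in the YAP libraries, against 20 and 21 for those of TAZ, lay above the median of the comparison stretch. At most 2 lay above its highest window in any library.

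Covered share and width gave the same small difference, and it rested largely on the outermost windows. Peaks covered 17.6% and 15.6% of the interval with YAP and 13.1% and 12.6% with TAZ. The comparison stretch was covered to 15.6% and 13.7% with YAP and 11.1% and 10.4% with TAZ. The interval was the more covered in every library. The mean difference was 1.99 ± 0.127 percentage points (SD over 4 libraries), and with both borders drawn in by 1 Mb it was 1.05 points. The median width was 512.5 and 496 bp with YAP and 494 and 504 bp with TAZ in the interval, and 486 and 474 bp with YAP and 475 and 473 bp with TAZ in the comparison stretch. The mean difference of 24.6 ± 5.25 bp became 4.5 bp with the narrower borders. Both outermost windows are among the 5 fullest of the interval.

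Peak number differed more across the lower border than across the upper. Just inside the lower border, the window starting at 95 Mb held 189 and 193 peaks with YAP and 184 and 186 with TAZ. Just outside it, the window starting at 94 Mb held 149 and 158 with YAP and 132 and 129 with TAZ. Every library thus held more peaks inside this border than outside. Inside the upper border, the last window held 210 and 206 with YAP and 190 and 187 with TAZ, and the first window beyond it held 192 and 185 with YAP and 163 and 160 with TAZ. Over the next 20 Mb beyond the upper border, peak number was 156.7 and 149.7 per Mb with YAP and 139.9 and 124 with TAZ. The interval was 1.00 ± 0.028 times as dense as that distal part (SD over 4 libraries), and TAZ replicate 1 alone had fewer peaks per Mb in the interval. By covered share and width the interval lay below the distal part. There peaks covered 18.4% and 19.5% of the bases with YAP and 17.8% and 22.3% with TAZ, and the covered share of the interval was 0.765 ± 0.164 times as large (SD over 4 libraries). The median width of the distal part was 552.5 and 613 bp with YAP and 677.5 and 784.5 bp with TAZ. The interval was thus the less covered and had the narrower peaks in every library, the reverse of its order against the comparison stretch.

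Strong peaks were denser on the long arm from 56 Mb onward, the interval included, than between 47 and 56 Mb or on the short arm. They are the 20000 peaks of each library with the highest −log10 q on chromosomes 1 to 22 and X, which takes list length out of the count. The interval held 679 and 584 of them with YAP and 520 and 549 with TAZ. These were 13.7% and 12.5% of its YAP peaks and 12.5% and 14.1% of its TAZ peaks, where the share in the whole lists was 5.1% and 5.66% with YAP and 6% and 6.44% with TAZ. The share was above that of the whole list in each library. Per Mb there were 21.9 and 18.8 with YAP and 16.8 and 17.7 with TAZ in the interval, and 19.0 and 16.9 with YAP and 15.1 and 16.0 with TAZ in the comparison stretch. The median window of the interval, with 21, 19, 17 and 16 strong peaks in the 4 libraries, held more than 92.3%, 92.0%, 90.7% and 88.8% of the 2741 windows on other chromosomes. By all deposited peaks the corresponding figures were 63.1%, 65.2%, 62.4% and 60.2%, so the interval stood far higher among windows by strong peaks than by peak number. The stretch was proposed with the peaks of these lists in view, so its high place among windows is no separate finding.

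**Figure D3:**
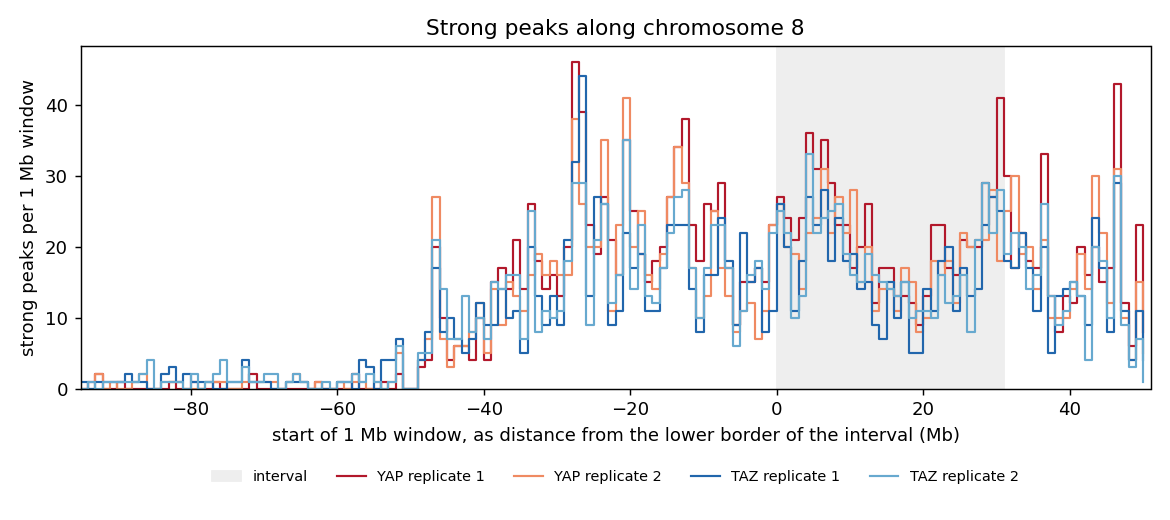
Strong peaks per 1 Mb window along chromosome 8, with distance from the lower border of the interval in Mb on the x axis and the number of strong peaks on the y axis, as 1 line per library. Strong peaks were nearly absent from the short arm at the left, and no window of the shaded interval held more than the highest window of the comparison stretch in the same library (41 and 31 against 46 and 41 with YAP, 28 and 33 against 44 and 35 with TAZ).

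The step in strong peaks lay inside the comparison stretch. Its first 9 Mb, from 47 to 56 Mb, held 7.56 and 9 strong peaks per Mb with YAP and 9.22 and 10.2 with TAZ. Its remaining 39 Mb held 21.6 and 18.7 with YAP and 16.4 and 17.4 with TAZ. The interval exceeded the whole comparison stretch by a ratio of 1.12 ± 0.023, but exceeded the part from 56 to 95 Mb, a division made after the windows were seen, by only 1.02 ± 0.0056 (SD over 4 libraries). On the short arm, from its tip to 43 Mb, strong peaks came to 0.302 and 0.628 per Mb with YAP and 1.14 and 1.14 with TAZ. Deposited peaks were much less depleted there, with 121.7 and 97.2 per Mb with YAP and 94.05 and 91.0 with TAZ. Called peaks were thus common on an arm where strong peaks were nearly absent.

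The peak caller's −log10 p at a given fold was lowest on the short arm and between 47 and 56 Mb, where strong peaks were fewest, but did not follow strong peaks within the interval. Peaks with a fold from 3 to under 3.5 and a width from 300 to under 600 bp were compared, so that both properties were held within narrow bounds. In the interval their median −log10 p was 6.72 and 5.66 with YAP and 5.19 and 5.17 with TAZ. The comparison stretch had 6.85 and 5.57 with YAP and 5.17 and 5.23 with TAZ, higher than the interval in 2 libraries and lower in the other 2. The mean difference of -0.0234 ± 0.0994 (SD over 4 libraries) was smaller than the spread between libraries and changed sign to 0.0149 without YAP replicate 1. On the short arm the median was 5.02 and 4.45 with YAP and 4.16 and 4.18 with TAZ. Between 47 and 56 Mb it was 5.69 and 4.86 with YAP and 4.51 and 4.61 with TAZ. Between 56 and 95 Mb it was 7.08 and 5.73 with YAP and 5.29 and 5.31 with TAZ. In the distal 20 Mb it was 6.26 and 5.35 with YAP and 4.84 and 4.99 with TAZ, below the interval in every library. Within the interval the lower flank, with more strong peaks per Mb than the middle in every library, had 6.74 and 5.66 with YAP and 5.10 and 5.16 with TAZ. The middle had 6.82 and 5.64 with YAP and 5.26 and 5.27 with TAZ, the higher value in 3 of the 4 libraries. The strong peaks themselves were ranked on −log10 q, which depends on −log10 p, so the low values on the short arm and between 47 and 56 Mb are partly built in, and the part of local read number was not tested.

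Within the interval, strong peaks also followed the flanks, though less steeply than covered bases. The lower flank held 27.3 and 22.7 per Mb with YAP and 21.3 and 21.9 with TAZ. The middle held 16.5 and 15.1 with YAP and 12.5 and 13.7 with TAZ. The upper flank held 26.3 and 21.7 with YAP and 19.8 and 20.7 with TAZ. As a share of all peaks, however, strong peaks differed little between the middle and the lower flank. In the middle they were 12.3% and 12.2% with YAP and 12.3% and 14.6% with TAZ. In the lower flank they were 14.8% and 12.8% with YAP and 12.9% and 13.9% with TAZ. The middle had the higher share in TAZ replicate 2 only.

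The authors' fold differed little between the interval and the comparison stretch. Its median was 3.23 and 3.16 with YAP and 3.18 and 3.09 with TAZ in the interval, and 3.15 and 3.11 with YAP and 3.16 and 3.06 with TAZ in the comparison stretch. Within the interval the median was higher in both flanks than in the middle in every library. It was 3.32 and 3.25 with YAP and 3.24 and 3.13 with TAZ in the upper flank. In the middle it was 3.13 and 3.09 with YAP and 3.11 and 3.08 with TAZ. In the interval 12.4% and 8.63% of the YAP peaks and 11.3% and 7.33% of the TAZ peaks had a fold of 4 or more, where the share in the whole lists was 9.22% and 7.52% with YAP and 9.68% and 5.6% with TAZ. Over the comparison stretch it was reached by 10.7% and 8.46% with YAP and 10.6% and 7.38% with TAZ. Replicates of the same antibody differed more in this share than the 2 stretches did. The YAP replicate 1 share was highest in the upper flank, at 14.8%, and lowest in the middle, at 10.3%, whereas in TAZ replicate 2 it was 7.24% and 7.37% in those parts.

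The single best-ranked peak of each library was narrow and lay at a different place. The best-ranked peak of YAP replicate 1 lay from 123904822 to 123905323, with a fold of 6.09 and rank 102 in the list, while the overlapping peak of YAP replicate 2 had 3.06 and those of the TAZ libraries 4.47 and 2.56. That of YAP replicate 2 lay from 116633829 to 116634288, with a fold of 6.02 and rank 93, against 4.90 in the other YAP library and 3.33 and 3.44 in those of TAZ. Both were present in all 4 lists. That of TAZ replicate 1 lay from 118825934 to 118826377, with a fold of 6.19 and rank 130. There the overlapping YAP peaks had 4.19 and 3.82, and that of TAZ replicate 2 had 3.28. That of TAZ replicate 2 lay from 113358800 to 113359163, with a fold of 6.44 and rank 90, and overlapped YAP peaks with a fold of 3.56 and 4.88 but no peak of TAZ replicate 1. Of the 12 places looked up in another list, 11 held a peak; since each peak was picked as the best of its own library, a lower fold in the others was nearly fixed by the choice. A place chosen after its values were seen, from 99935866 to 99936276 in TAZ replicate 1, had a fold above 5 in 3 libraries. It reached 6.33 and 6.04 in the TAZ libraries and 5.79 in YAP replicate 2, but 3.33 in YAP replicate 1, where its rank was 114376.

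Merging overlapping strong peaks across lists gave 1701 regions in the interval, and 14 of these were strong in all 4. That is 0.823%, where the share over the genome was 1.28% (788 of 61788) and in the comparison stretch 1.02% (23 of 2254). Strong in a single library were 1198 regions, in 2 libraries 393 and in 3 libraries 96. Over the genome 48190 of 61788 were strong in 1 library, 10181 in 2 and 2629 in 3. Against the genome, the interval thus had the smaller share in 1 library and the larger shares in 2 and in 3. In the comparison stretch 1524 of 2254 were strong in 1 library, 535 in 2 and 172 in 3. In the distal part beyond the upper border 637 of 911 were strong in 1 library, 213 in 2 and 52 in 3. Both parts differed from the genome in the same direction, so this order was not particular to the interval. Regions strong in both YAP libraries made up 9.05% in the interval, 6.90% over the genome and 10.2% in the comparison stretch. For both TAZ libraries the shares were 5.996%, 5.789% and 7.36%. The 14 regions were spread over 10 windows, with 6 in the lower flank, 3 in the middle and 5 in the upper flank. The median fold in them was 4.20 and 3.98 with YAP and 4.48 and 4.03 with TAZ, close to that of all strong peaks of the interval, at 4.22 and 4.13 with YAP and 4.29 and 4.02 with TAZ.

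The region with the lowest sum of ranks lay from 100374239 to 100375182, with a fold of 4.88 and 5.22 with YAP and 5.54 and 4.05 with TAZ. It ranked 1375 and 326 among all peaks of the YAP libraries and 389 and 6889 among those of the TAZ libraries. The second lay from 123187188 to 123188431, with a fold of 4.85 and 4.16 with YAP and 4.33 and 4.22 with TAZ, and its peak was over 1 kb wide in every library. These first 2 regions thus had a fold above 4 in all 4 libraries. The third, from 106987516 to 106988063, had 5.25 and 3.87 with YAP and 4.45 and 4.12 with TAZ. The fourth, from 118984053 to 118984541, had 4.12 and 4.82 with YAP and 4.86 and 4.16 with TAZ. The fifth, from 104961022 to 104961548, had 4.25 and 4.34 with YAP and 4.51 and 5.15 with TAZ. There both TAZ values were above both YAP values, while the antibodies overlapped in the other 4.

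Regions with strong peaks of 1 antibody and no peak of the other were few in the interval. Of 154 regions strong in both YAP libraries, 1 (0.649%) overlapped no deposited TAZ peak, where the share over the genome was 1.64%. Its bounds were 105507822 and 105508279, and the YAP fold in it was 4.42 and 4.27. Of 102 regions strong in both TAZ libraries, 0 overlapped no YAP peak, which allows a share of up to 2.94% by counting error alone; the share over the genome was 0.308%. In the comparison stretch the numbers were 4 of 230 and 1 of 166. At counts this small, no difference from the genome or the comparison stretch can be read.

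Agreement between lists was high in bases for all deposited peaks. The Jaccard index, which divides the bases covered in both libraries by those covered in at least 1, was 0.668 between the YAP libraries and 0.551 between the TAZ libraries in the interval. For a YAP with a TAZ library it was 0.578 for both numbered 1, 0.562 for both numbered 2, 0.537 for YAP replicate 1 against TAZ replicate 2 and 0.579 for YAP replicate 2 against TAZ replicate 1. The index of the TAZ pair was thus below that of 3 of the 4 mixed pairs. The 6 indices of the comparison stretch ran from 0.485 to 0.635, and each pair had a higher index in the interval. The mean difference was 0.0422 ± 0.0093 (SD over 6 pairs, which share libraries).

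The index rises with the covered share, and the interval was the more covered stretch in every library, so the difference is no measure of agreement apart from coverage. Within the interval the mean index was 0.620 in the lower flank, 0.481 in the middle and 0.613 in the upper flank, in the order of their covered shares. The share of bases covered in both libraries was also divided by the product of their covered shares. This ratio was lower in the interval than in the comparison stretch in all 6 pairs, with means of 5.06 and 5.61, the reverse of the index. It is not free of coverage either, with means of 3.56 in the lower flank, 8.35 in the middle and 3.88 in the upper flank. By the index, strong peaks gave the opposite order to all peaks, with a mean of 0.0989 in the interval and 0.119 in the comparison stretch. All 6 pairs were lower in the interval, by the least for the YAP pair, at 0.133 and 0.136.

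**Figure D4:**
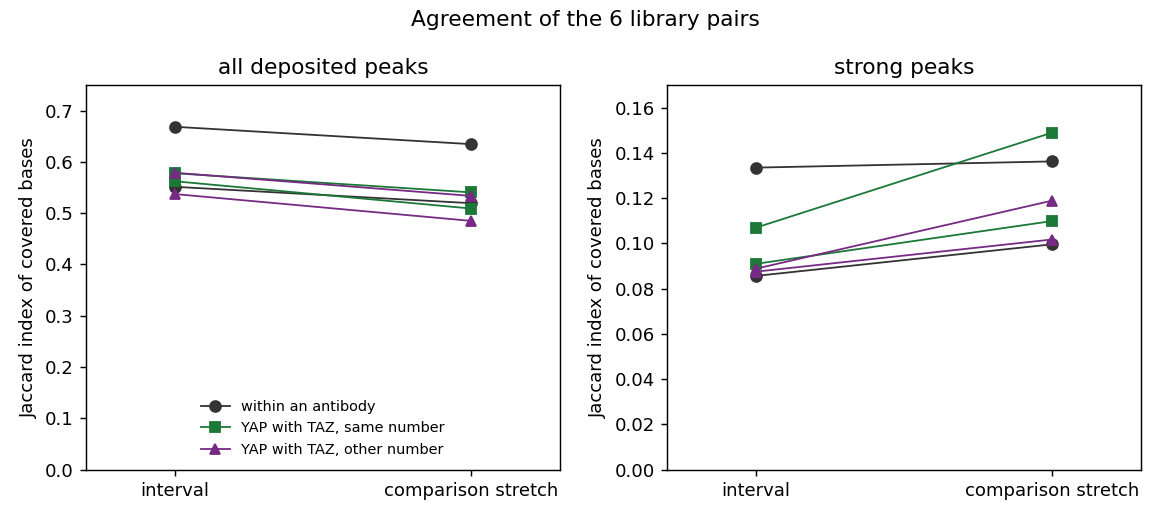
Jaccard index of covered bases (y axis) for the 6 pairs of libraries in the interval and in the comparison stretch (x axis), with all deposited peaks on the left and strong peaks on the right. Each line is a pair; all lines are higher in the interval for all peaks (mean 0.579 against 0.537) and lower in it for strong peaks (mean 0.0989 against 0.119).

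By window, the mean index of the 6 pairs was lowest where peaks were few. It was 0.409 between 114 and 115 Mb and 0.723 between 95 and 96 Mb, the emptiest and the most covered window. Across the 31 windows it had a Spearman's rho of 0.910 with the mean covered share, and 0.862 across the 48 windows of the comparison stretch. The points share libraries and the index depends on the covered share by construction.

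Counted in peaks, most members were seen again in the other lists. Peaks overlapped by all 3 other libraries were 2847 and 2911 with YAP, or 57.5% and 62.2%, and 2968 and 2956 with TAZ, or 71.3% and 75.8%. In the whole lists the shares were 49.3% and 56% with YAP and 60.9% and 63.9% with TAZ, below the interval in each library, and in the comparison stretch 52.7% and 56.8% with YAP and 66.5% and 72.4% with TAZ. Peaks overlapped by no other library were 338 and 194 with YAP, or 6.82% and 4.14%, and 124 and 134 with TAZ, or 2.98% and 3.44%. The whole lists held 10.3% and 5.79% such peaks with YAP and 5.58% and 7.08% with TAZ. Members found in all lists were wider and had a higher fold than those found in 1. In YAP replicate 1 the median width was 993 bp with 3 other libraries and 357 bp with none, and the median fold 3.39 and 2.59. In TAZ replicate 2 the widths were 747 and 342 bp and the folds 3.14 and 2.61. A wider peak meets more peaks of any list, so part of the difference in width follows from the overlap itself.

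All peaks of the 4 libraries merged into 5422 regions in the interval. Of these, 2757 (50.8%) had a peak in all 4 libraries, 1119 in 3, 756 in 2 and 790 in 1. In the comparison stretch 45.4% of 7855 regions had a peak in all 4. Regions with peaks of both YAP libraries and no TAZ peak numbered 386 (7.12%), and those with peaks of both TAZ libraries and no YAP peak 23 (0.424%). In the comparison stretch these shares were 8.42% and 1.01%. Regions with a peak in both libraries numbered 1 and none in those numbered 2 were 159 (2.93%), against 51 (0.941%) the other way round. There the comparison stretch had 2.93% and 1.18%. The shares over the genome were not counted, so none of these counts is read as particular to the interval. The YAP lists were longer than the TAZ lists, and with each antibody the list numbered 1 was the longer.

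The YAP libraries held more peaks than the TAZ libraries in this stretch, with means of 4818.5 ± 191.6 and 4030.5 ± 183.1 (SD, n = 2 each). Both YAP values lay above both TAZ values, and the exact two-sided permutation p was 0.333, the smallest that 2 libraries against 2 can give. The YAP lists were longer as a whole, so the share of each list was compared instead. The interval held 1.26% and 1.33% of the YAP lists and 1.25% and 1.26% of the TAZ lists. The YAP minus TAZ difference was 0.0428 percentage points (exact two-sided permutation p = 0.333), and it was 0.0118 points without YAP replicate 2, 0.0738 points without YAP replicate 1 and -0.0980 points when the q-value had to be 0.01 or less (exact two-sided permutation p = 0.667). No difference between the antibodies in the share of their peaks in this stretch was therefore established. Of the strong peaks, the interval held 3.40% and 2.92% with YAP and 2.60% and 2.75% with TAZ (exact two-sided permutation p = 0.333). The comparison stretch gave the same order, with 4.55% and 4.04% with YAP and 3.62% and 3.85% with TAZ.

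The excess of YAP peaks was not even along the stretch. Both YAP libraries held more peaks than both TAZ libraries in 30 of the 31 windows (96.8%), where the share over all 1 Mb windows of the genome was 64.8%, and in 45 of the 48 windows of the comparison stretch. The exception was the window starting at 103 Mb, which held 215 and 200 peaks with YAP and 201 and 203 with TAZ. The ratio of the mean YAP to the mean TAZ number was 1.03 there and 1.52 in the emptiest window, which starts at 114 Mb. It had a median of 1.11 in the lower flank, 1.33 in the middle and 1.16 in the upper flank. Across the 31 windows its Spearman's rho with the mean peak number was -0.807, and across the 48 windows of the comparison stretch it was -0.826. Both quantities are made from the same counts, and both stretches gave a like value.

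**Figure D5:**
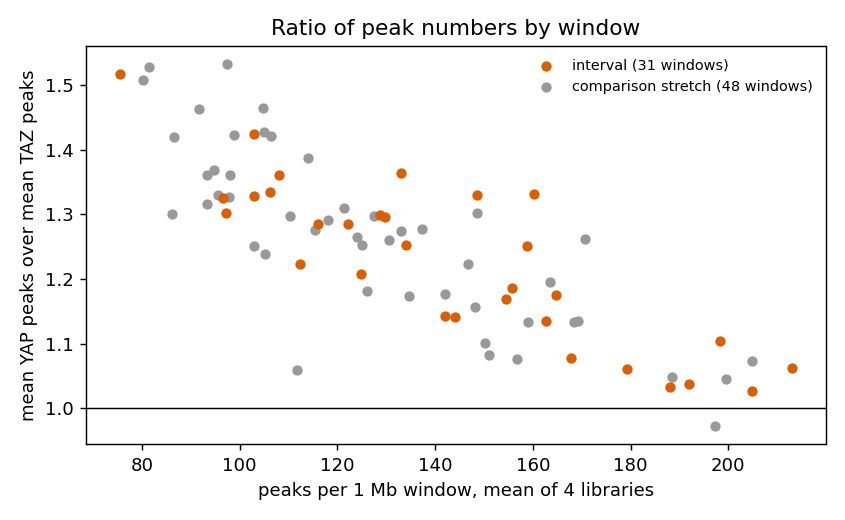
Mean YAP peaks over mean TAZ peaks (y axis) against the mean number of peaks per 1 Mb window over the 4 libraries (x axis), with 1 point per window of the interval or of the comparison stretch. Windows with about 200 peaks lie near a ratio of 1 and the emptiest near 1.5, in both stretches.

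The same contrast was taken per library, as the density of peaks in the middle divided by that in the flanks. The ratio was 0.731 and 0.705 with YAP and 0.621 and 0.605 with TAZ, with means of 0.718 ± 0.0184 and 0.613 ± 0.0109 (SD, n = 2 each). The groups did not overlap, the difference was 0.105 and the exact two-sided permutation p was 0.333. When all lists were cut down to the number of peaks in the shortest, the ratio was 0.696 and 0.676 with YAP and 0.616 and 0.605 with TAZ, and the groups still lay apart. Among strong peaks it was 0.614 and 0.678 with YAP and 0.604 and 0.641 with TAZ, and the groups overlapped (exact two-sided permutation p = 0.667). The antibodies thus lay apart in this ratio by all peaks and not by strong peaks. The matched −log10 p was higher with both YAP than with both TAZ libraries in the middle, in both flanks and in the comparison stretch. In the upper flank it was 6.44 and 5.70 with YAP and 5.17 and 5.03 with TAZ. The part of the matched −log10 p in the difference between the antibodies was not tested.

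Strong peaks also gave YAP above TAZ in more windows than the reverse, but not most often in the middle. Both YAP libraries held more strong peaks than both TAZ libraries in 9 of the 31 windows (29.0%) and the reverse held in 0, where the shares over the genome were 10.5% and 16.3%. Windows with YAP above TAZ were 40% of the lower flank, 20% of the middle and 33.3% of the upper flank. In the comparison stretch the counts were 17 and 4 of 48 windows. In both stretches, windows with YAP above TAZ made up a larger share than over the genome. The genome is no like base for this. Its median window on other chromosomes held 3 and 4 strong peaks with YAP and 5 and 4 with TAZ. The median window of the interval held 21 and 19 with YAP and 17 and 16 with TAZ. How far such low counts lower the genome shares was not tested. The strong lists are equally long, but depth is unknown, and its part in this order was not tested.

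Stretches free of peaks in all 4 libraries were short in the interval. The longest ran from 119740385 to 119797013 (56629 bp), the second from 113890505 to 113937528 (47024 bp) and the third from 114124837 to 114164864 (40028 bp), and all 3 lay in the middle. Stretches of at least 20 kb numbered 75 and added up to 1.91 Mb of the 31 Mb. In the longer comparison stretch of 48 Mb there were 148, which added up to 4.05 Mb. The longest, from 86574729 to 86754615, spanned 179887 bp. In the distal 20 Mb there were 50, which added up to 1.54 Mb, and the longest spanned 211566 bp. The numbers and totals depend on the length of each part. No list of assembly gaps or of artefact-prone sequence was used here, so their part in these stretches was not tested.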

How the data were processed

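The 4 broad peak lists (2 YAP, 2 TAZ) were used as deposited. The submitters' processing notes name hg19 and the tools cutadapt, Bowtie2, SAMtools and MACS2, and their versions and settings are not given in the sources used here. As deposited by the authors, each peak has a fold (a linear ratio to input), a −log10 p and a −log10 q. The score column the authors deposited was not used.

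Peaks were placed by midpoint in windows of 1 Mb. Covered share and the Jaccard index were taken from bases under peaks, clipped to the stretch, and overlaps needed 1 bp. Ties in rank by −log10 q were ordered by −log10 p, fold and position. Genome shares use chromosomes 1 to 22 and X. Antibodies were compared by exact two-sided permutation over libraries, with no fit across features. Named windows, peaks and regions follow a rule: the 5 fullest and 5 emptiest windows, border windows, the widest and best-ranked peak of each library, 5 regions strong in all 4, selective regions and the 3 longest peak-free stretches. The interval, the rule and the tests were chosen with earlier results of these data known. Functions were tested on simulated lists. Python 3.11.15, numpy 2.4.6, pandas 2.3.3, scipy 1.17.1 and matplotlib 3.10.9 were used. The input libraries themselves were not analysed here.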

Additional observations from a re-analysis of the deposited data

How the results depend on the processing

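The ratio of peak density, interval over comparison stretch, was 1.16 with a q-value of at most 0.01, 1.15 with lists shortened to the shortest, 1.19 with a fold of at least 4, 1.09 with borders drawn in by 1 Mb each and 1.14 against 56 to 95 Mb. The covered share difference under these settings, fold aside, was 2.25, 2.22, 1.05 and 2.51 percentage points. The strong peak ratio was 1.18 when ranked by fold, 1.18 with 50000 peaks, 1.09 with the narrower borders and 1.02 against 56 to 95 Mb. The width difference was 4.5 bp with the narrower borders and 39.9 bp against 56 to 95 Mb. The matched −log10 p difference was 0.00898 at a fold of 2.5 to under 3, -0.169 against 56 to 95 Mb, and -0.0612 to 0.0149 with a library left out. The agreement difference was 0.0295 with the narrower borders, 0.0275 against 56 to 95 Mb, -0.0203 among strong peaks and 2.95 percentage points of peaks at a reciprocal overlap of 50%. The YAP minus TAZ difference in list share was -0.0980 points with a q-value of at most 0.01. The causes were not tested. The comparison from 56 Mb and the division into flanks and middle were chosen after seeing the data.

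The replicate number pairs no cultures by the labels. With it as a replicate block, the list share difference was 0.0428 points and the difference in middle over flank ratio 0.105, as without it, and the smallest exact p of 2 pairs is 0.5. Deviations of the libraries numbered 1 correlated at 0.476 over 31 windows. With a library left out, the list share difference ran from 0.0118 to 0.0738. Unknown depth limits every comparison of list length.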
